A study of Mus musculus with 5 samples.

Results

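The collagen genes are described here in poly(A) RNA-seq of the embryonic mouse mandible. They are the rows of the count table whose symbol names a collagen chain, from Col1a1 to Col28a1, with at least 15 counts summed over the 5 libraries. Of 23441 gene rows, 44 had such a symbol and 37 reached that total: 11 chains of fibrillar collagens, 7 of basement membranes, 2 of network collagens, 9 of FACITs (collagens that coat the surface of fibrils), 3 of beaded-filament collagens and 5 transmembrane or other chains. The 2 members nearest the limit were Col8a1 with 16 counts and Col19a1 with 19. Outside it lay Col6a6 with 9 counts, Col4a3, Col4a4 and Col28a1 with 8 each, Col6a4 with 5, Col6a5 with 3 and Col10a1 with 0.

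Mandibular tissue was dissected at embryonic day 10.5. The 3 control libraries came from Yapf/f, Tazf/f embryos on a 129SvEv background, which carry the conditional alleles without a named Cre. The 2 dCKO libraries came from Wnt1Cre; Yapf/f, Tazf/f embryos, labelled as C57BL/6J x CBA/J; 129SvEv. Both groups thus carry the floxed alleles of Yap1 and of Wwtr1, the gene of TAZ, and they differ in the Cre and in strain, whose parts in any difference cannot be told apart. Wnt1Cre acts in the neural crest, so the epithelium, endothelium and blood of the arch keep both genes. The labels do not say whether each library came from its own embryo or litter, so a p-value here reflects only how far these 5 libraries scatter, which may be technical. In such bulk tissue, fewer cells of a type and less RNA per cell cannot be told apart.

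Collagens are secreted or membrane-bound proteins whose chains wind into a triple helix inside the cell, as homotrimers or as heterotrimers of chains from different genes. Fibrillar collagens are trimmed outside the cell and pack into fibrils, FACITs sit on those fibrils, type IV collagen forms the meshwork of basement membranes, and type VI collagen forms beaded filaments near cell surfaces. In the embryonic jaw the neural crest mesenchyme lays down the fibrillar matrix in which cartilage and bone later form. YAP and TAZ are coactivators that act with TEAD factors downstream of the Hippo pathway and of mechanical cues from the matrix.

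Total counts were 6491137 to 7439419 in the controls and 11346480 and 13298973 in dCKO. Levels are given as TMM-scaled CPM (counts scaled to the same library size), and levels of different genes are compared only per kilobase of transcript. Yap1 was at 311.8, 475 and 512.1 CPM in the controls and at 174.6 and 169.9 CPM in dCKO, and Wwtr1 at 38.4, 65.1 and 66.2 CPM against 22.7 and 22.8 CPM. Counts cover whole genes, so the deleted exons could not be read separately. Erythroid marker genes took 0.358% to 0.468% of the control counts and 7.64% and 5.49% of the dCKO counts. Neural crest mesenchyme markers were counted for 12 of 12 genes, summing to 2251 to 2413 CPM in the controls and 2048 to 2150 CPM in dCKO. Of the cartilage list, Acan reached at most 0.812 CPM and Matn1 and Lect1 had no count in any control, while Sox9, Sox5, Sox6 and Hapln1 were expressed, Hapln1 at 30.7 to 33.2 CPM in the controls. Of the osteoblast list, Ibsp had no count in any control. Alpl was at 9.07 to 18.0 CPM in the controls and at 17.65 and 15.7 CPM in dCKO. The list summed to 14.85 to 27.5 CPM in the controls and to 22.83 and 21.13 CPM in dCKO. Of its 4 tested genes, 2 had log2 fold changes above 0 and 2 below. Only Spp1 was called, lower, 1 of 4 beside 1.42% of all genes tested. Spp1 (osteopontin) was at 2.44 to 3.21 CPM in the controls and at 0.370 and 0.153 CPM in dCKO, 10.7-fold lower (edgeR adjusted p = 0.00151). Its counts were 22, 18 and 21 in the controls and 4 and 2 in dCKO. Spp1 thus reached the count filter only through the controls, where it was higher, so its test is not independent of that filter.

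Per kilobase, the highest collagen levels in the controls were those of Col2a1 with 92.8 ± 25.9 CPM per kb (SD, n = 3) and Col18a1 with 86.2 ± 12.01. Col26a1 with 65.2 ± 13.2, Col3a1 with 64.7 ± 14.8 and Col4a1 with 53.8 ± 9.70 CPM per kb came next. The ranges of neighbours in this order overlapped across the controls, although Col18a1 was above Col26a1, and Col3a1 above Col4a1, within each of the 3 libraries. The α1 chain of cartilage collagen type II thus stood at the top of the fibrillar class in tissue with almost no Acan, Matn1 or Lect1 transcript. Lower on the same scale were Col4a2 with 40.2, Col9a1 with 39.1 and Col1a2 with 32.0 CPM per kb. The α1 chain of type I collagen, Col1a1, reached 4.45 ± 1.04 CPM per kb, so its partner Col1a2 was 5.58, 6.04 and 11.45 times as high in the 3 controls and 5.22 and 7.97 times in dCKO. All collagens together took 0.264%, 0.311% and 0.357% of the counts of the control libraries and 0.331% and 0.321% of those of the dCKO libraries. The 95% Wilson intervals, which cover counting error only, were 0.260% to 0.268%, 0.307% to 0.315% and 0.353% to 0.362%, then 0.327% to 0.334% and 0.318% to 0.325%. The dCKO shares lay inside the range of the controls, so no difference in total collagen RNA was visible beyond the spread of the libraries. With the erythroid markers left out of the totals, the mean share in dCKO was 1.12 times that of the controls, and 1.05 times with them in.

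**Figure D1:**
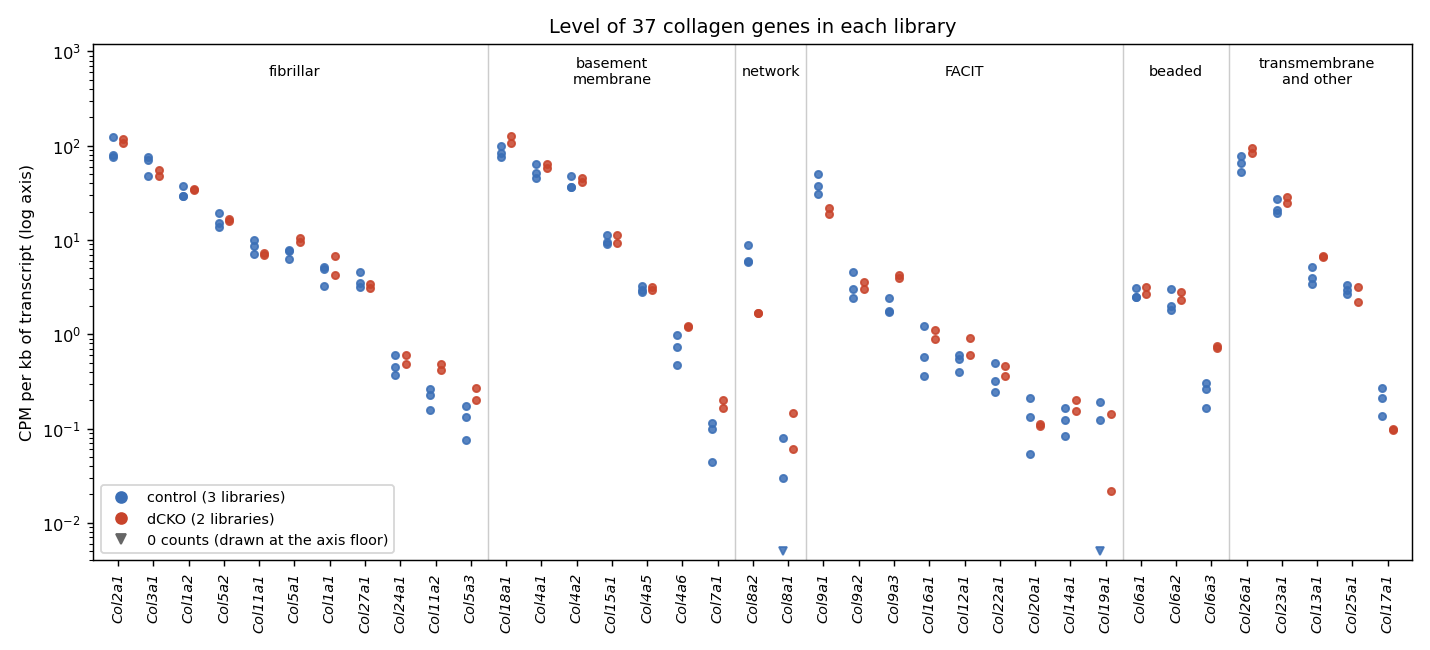
Level of each of the 37 collagen genes in CPM per kb of transcript (log axis), by class; blue points are the 3 control libraries, red points the 2 dCKO libraries, and triangles mark libraries with 0 counts. Levels span from about those of Col2a1 and Col18a1 to genes with a handful of counts; Col8a2, Col9a1 and Col17a1 lie lower in both dCKO libraries, and Col6a3 and Col9a3 higher.

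Of the 37 members, 31 had enough counts to be tested, and 6 of these passed the threshold (edgeR quasi-likelihood test, adjusted p below 0.05 over 12710 genes). Col18a1, Col5a1, Col6a3 and Col9a3 were higher in dCKO, and Col8a2 and Col9a1 were lower. This is 19.4% of the tested members, beside 6.42% of all genes tested, with 5.0% of all genes higher and 1.42% lower. The median log2 fold change of the tested members was 0.19, beside -0.001 for all genes, and 24 of 31 values lay above 0. These counts include Col7a1, which reached the count filter only through the dCKO libraries, where it was higher; without it 23 of 30 values lay above 0, with 9 members above every control. In 10 members both dCKO libraries lay above every control, beside 19.0% of all genes, and in 2 both lay below, beside 18.6%. That makes 12 of 31 without overlap between the groups, beside 37.6% of all genes, a share near the background. An unadjusted p under 0.05 was reached by 11 of the 31 tested members and by 2738 of the 12710 genes tested. The latter is the background for the counts of unadjusted p-values given below for each class and list. The changed members came from 5 of the 6 classes, and in the FACITs they moved in opposite directions. At the depth of these libraries, genes simulated with a 2-fold change were called in 80% of cases and genes with a 4-fold change in 98%. These were drawn at random from all genes tested, and genes of like level were given the same scatter. The simulation therefore does not give the recovery of the collagen members.

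**Figure D2:**
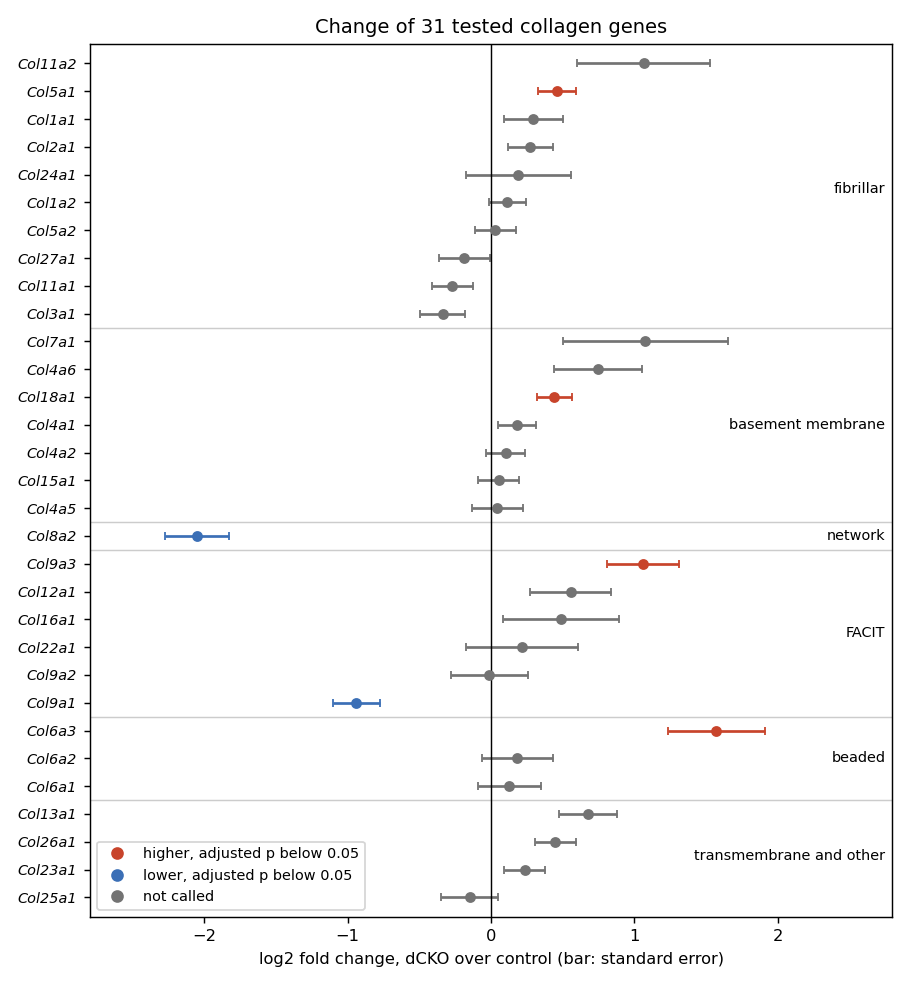
Log2 fold change of dCKO over control for the 31 tested collagen genes by class, with bars of 1 standard error; red is higher and blue lower at an edgeR adjusted p below 0.05, grey is not called. Col8a2 stands at -2.05 and Col9a1 at -0.94, Col6a3 at 1.57, and most other members lie within 0.5 of 0.

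Transcripts of collagens are long and rich in G and C: the 31 tested members had a median GC content of 56.7% and a median length of 5.93 kb, beside 50.3% and 3.21 kb over 12619 of the 12710 genes tested. With the trend of expression on GC content removed in each library, the median of the tested members was 0.05 in place of 0.19. Of the 4 higher members only Col6a3 kept its call. Col8a2 and Col9a1 kept theirs. With the erythroid marker genes left out before scaling, the same 6 members were called. Of the 6 calls, Col8a2 and Col9a1 held in all 15 alternative analyses and with any 1 library left out. With either dCKO library left out, Col6a3 and Col5a1 and Col9a3 were no longer called.

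**Figure D3:**
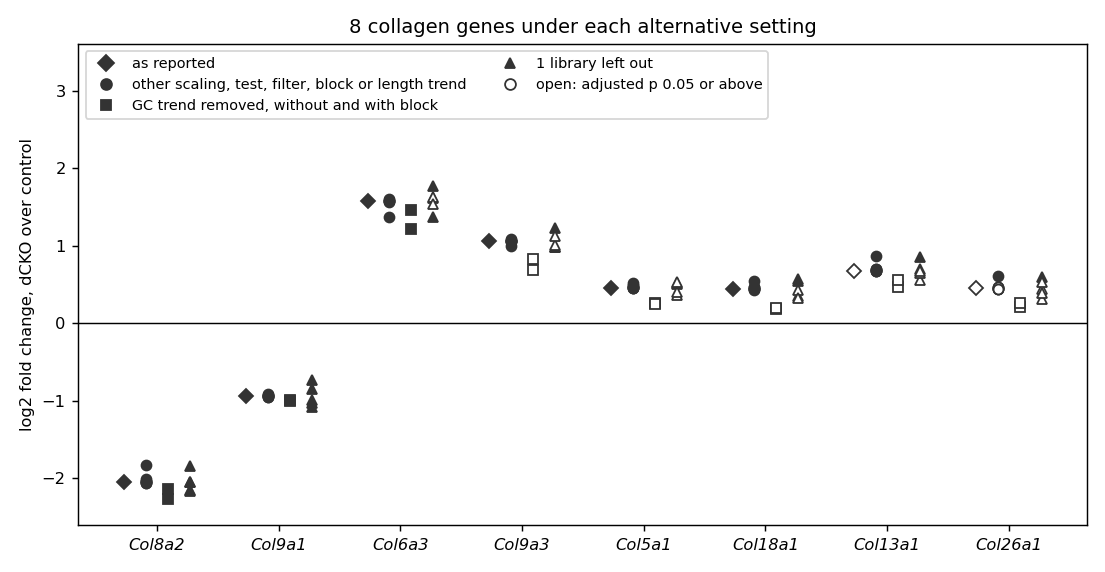
Log2 fold change of dCKO over control for 8 collagen genes under each alternative; filled symbols have an adjusted p below 0.05 and open symbols do not. Col8a2 and Col9a1 are filled throughout, the other 4 called genes have open symbols with a library left out, and Col13a1 and Col26a1 are open as reported and filled under some settings.

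The network collagen Col8a2 showed the largest difference among the collagens tested. It encodes the α2 chain of type VIII, a short-chain collagen that forms hexagonal lattices in the membrane beneath the corneal endothelium and in vessel walls. Its first promoter bases are shown because this gene and Col9a1 were the members that fell. They come from RefSeq's GRCm38.p6 assembly, plus strand, chr4:126286544-126286792, the 249 bases that end just before the first exon, written 5′ to 3′. Capitals mark GGGCGG or its reverse complement CCGCCC, the core of the GC box bound by Sp1-type factors. There were 4 matches, of which 2 overlap each other.
Col8a2: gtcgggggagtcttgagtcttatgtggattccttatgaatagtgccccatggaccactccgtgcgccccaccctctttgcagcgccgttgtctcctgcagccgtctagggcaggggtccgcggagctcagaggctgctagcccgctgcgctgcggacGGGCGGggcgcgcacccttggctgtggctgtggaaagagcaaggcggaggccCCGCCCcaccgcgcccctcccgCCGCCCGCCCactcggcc

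Col8a2 was at 25.2, 26.0 and 38.8 CPM in the controls and at 7.21 and 7.20 CPM in dCKO. Every control was more than 3 times as high as either dCKO library, and the groups did not overlap. The log2 fold change was -2.05 with a standard error of 0.22 (edgeR adjusted p = 2.48e-06), that is 4.15-fold lower. Across the 15 alternatives the log2 fold change ran from -2.26 to -1.83, and the largest adjusted p was 0.000173. The partner chain Col8a1 was close to absent, with 0, 3 and 1 counts in the controls and 8 and 4 in dCKO, and was not tested. Col10a1, the short-chain collagen of hypertrophic cartilage, had no count in any library. The class as a whole took 0.978%, 0.872% and 1.10% of the collagen counts in the controls and 0.229% in both dCKO libraries.

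Type IX collagen is a FACIT, a heterotrimer of the Col9a1, Col9a2 and Col9a3 chains that decorates type II fibrils in cartilage and in the vitreous. Its genes differed in direction: Col9a1 fell and Col9a3 rose. RefSeq gives Col9a1 transcripts from a pair of start sites, and transcripts from the downstream start lack the amino-terminal globular domain. Both upstream windows are shown because a count per gene adds up transcripts from both starts, so this fall could not be assigned to either. They are 5′ to 3′ from GRCm38.p6, plus strand: chr1:24177360-24177609, of 250 bases, before the upstream start, and chr1:24194953-24195186, of 234 bases, before the downstream start and without the exon bases that follow. Neither holds any of the 3 motifs searched (the TEAD core, the GC box and the TATA box, spelled out further down) on either strand, so all letters are in lower case.
Col9a1, upstream start: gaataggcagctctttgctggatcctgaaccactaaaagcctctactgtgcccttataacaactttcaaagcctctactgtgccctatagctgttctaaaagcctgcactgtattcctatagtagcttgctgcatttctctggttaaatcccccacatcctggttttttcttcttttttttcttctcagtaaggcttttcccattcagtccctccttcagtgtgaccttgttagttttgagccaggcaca
Col9a1, downstream start: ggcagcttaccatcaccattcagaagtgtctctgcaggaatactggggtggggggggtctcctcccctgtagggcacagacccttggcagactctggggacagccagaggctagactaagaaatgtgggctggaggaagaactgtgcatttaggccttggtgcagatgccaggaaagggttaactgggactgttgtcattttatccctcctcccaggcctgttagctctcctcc

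Col9a1 was at 117.3, 191 and 141.9 CPM in the controls and at 83.4 and 73.2 CPM in dCKO. Both dCKO libraries lay below the lowest control. The log2 fold change was -0.94 with a standard error of 0.17 (edgeR adjusted p = 9.33e-04), that is 1.92-fold lower, and over the 15 alternatives it ran from -1.09 to -0.73 with a largest adjusted p of 0.0261. Col9a3 went the other way. It was at 5.26, 7.30 and 5.35 CPM in the controls and at 13.0 and 11.95 CPM in dCKO, without overlap. Its log2 fold change was 1.06 with a standard error of 0.25 (edgeR adjusted p = 0.0121). That call did not hold with the GC trend removed, where the log2 fold change was 0.83 and adjusted p = 0.0639, nor without control replicate 1 (adjusted p = 0.0677), dCKO replicate 1 (0.141) or dCKO replicate 2 (0.0661). Exons of Col9a3 overlap those of Tcfl5 on the other strand, and the labels do not say whether the counting used strand. Tcfl5 itself was at 4.34, 4.33 and 5.96 CPM in the controls and 4.90 and 4.98 CPM in dCKO, a log2 change of 0.02 (edgeR adjusted p = 0.975).

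Col9a2 was at 8.80, 13.4 and 7.03 CPM in the controls and 8.78 and 10.6 CPM in dCKO, with overlapping groups and a log2 change of -0.01 (SE 0.27, edgeR adjusted p = 0.986). On a per-length scale, Col9a1 was 17.7, 20.8 and 21.1 times Col9a3 in the controls and 5.08 and 4.87 times in dCKO. The excess of the α1 chain over the α3 chain was therefore 3.99-fold smaller in dCKO on average. The same ratio of Col9a1 to Col9a2 was 10.2, 10.9 and 15.4 in the controls and 7.24 and 5.28 in dCKO. The ratio of Col9a2 to Col9a3 was 1.75, 1.91 and 1.37 against 0.702 and 0.922. None of these ratios overlapped between the groups; chain ratios are given as descriptions and were not tested. Col2a1, whose fibrils type IX coats, was 2.46, 1.61 and 3.31 times Col9a1 in the controls and 5.40 and 5.60 times in dCKO. The summed level of the cartilage markers overlapped between the groups, at 236 to 302 CPM in the controls and 238 to 252 CPM in dCKO. None of the 4 tested cartilage markers passed the edgeR test, 1 had an unadjusted p under 0.05, and DESeq2 and limma-voom called 0. Sox9, the master regulator of cartilage and the largest term of that sum, was at 130.1, 139.2 and 181 CPM against 147.2 and 146 CPM. Sox5 overlapped between the groups, at 47.2, 47.9 and 51.8 CPM against 47.1 and 55.4 CPM, a log2 change of 0.07 (edgeR adjusted p = 0.815). Sox6 and Hapln1 lay below every control in both dCKO libraries, as Col9a1 and 18.6% of all genes tested did. Sox6, a cofactor of Sox9, was at 24.8, 25.3 and 35.9 CPM against 18.1 and 20.9 CPM, a log2 change of -0.55 (SE 0.19, edgeR adjusted p = 0.0958). Hapln1, a link protein of the cartilage matrix, was at 33.1, 30.7 and 33.2 CPM against 24.8 and 28.8 CPM, a log2 change of -0.27 (edgeR adjusted p = 0.335). The part of these markers in the level of Col9a1 was not tested.

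**Figure D4:**
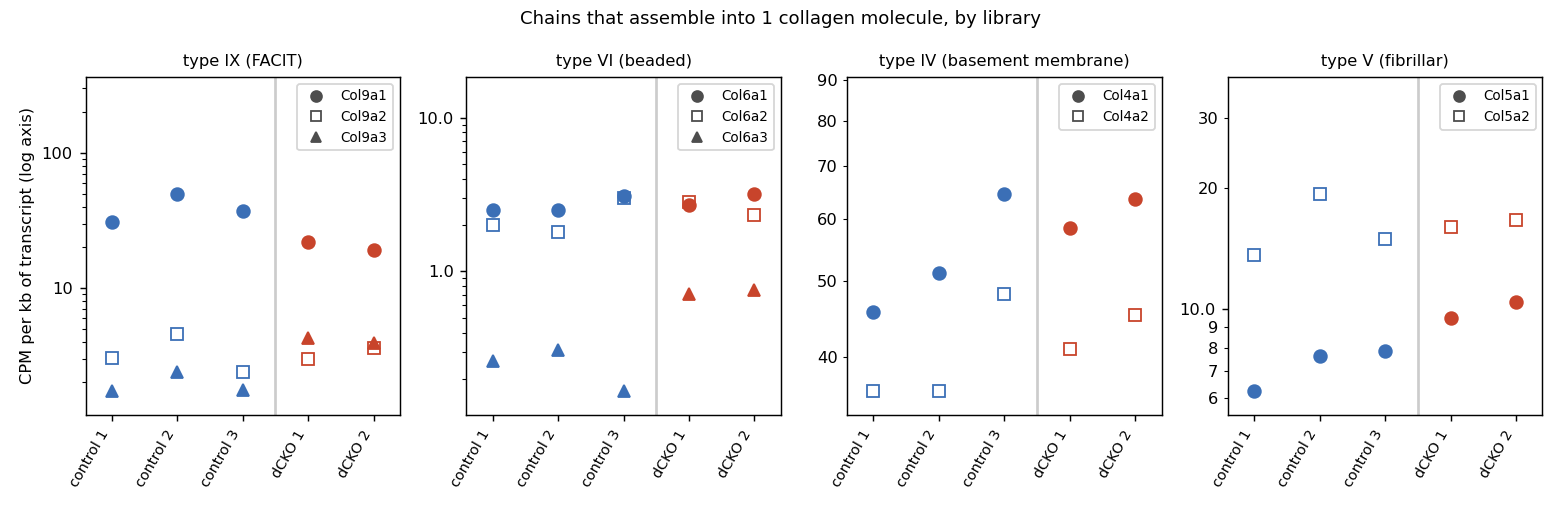
Levels in CPM per kb (log axis, a different range in each panel) of chains that assemble into 1 molecule, in each library; blue is control, red is dCKO. Col9a1 and Col9a3 approach each other in dCKO, as do Col6a1 and Col6a3, while Col4a1 and Col4a2 keep a similar distance.

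The other FACITs were expressed at a low level. Col12a1, a chain on type I fibrils of dense connective tissue, was at 6.31, 6.90 and 4.58 CPM in the controls and 6.93 and 10.5 CPM in dCKO, a log2 change of 0.55 (SE 0.28, edgeR adjusted p = 0.271). Its lower dCKO library lay just above the highest control. Col16a1 and Col22a1 had overlapping groups and log2 fold changes of 0.49 and 0.21. Col14a1, Col19a1 and Col20a1 had 44, 19 and 27 counts in all and were not tested. As a share of collagen counts, the FACITs took 5.70%, 7.44% and 4.79% in the controls and 3.58% and 3.55% in dCKO, most of it Col9a1.

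Type VI collagen, the beaded filament found around most mesenchymal cells, is built from the Col6a1 and Col6a2 chains with the longer Col6a3 chain, all of which a standard trimer needs. The stretch before the start of Col6a3 is shown because it was the member with the largest rise, and because its partner chains were not called. It is from GRCm38.p6, minus strand, chr1:90843972-90844221, of 250 bases, written 5′ to 3′ with no match to the 3 motifs.
Col6a3: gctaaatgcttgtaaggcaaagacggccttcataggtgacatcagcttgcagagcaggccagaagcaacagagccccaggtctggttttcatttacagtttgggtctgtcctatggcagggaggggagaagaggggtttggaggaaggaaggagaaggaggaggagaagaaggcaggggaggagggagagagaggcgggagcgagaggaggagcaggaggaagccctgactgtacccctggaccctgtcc

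Col6a3 was at 2.63, 3.11 and 1.68 CPM in the controls and at 7.21 and 7.66 CPM in dCKO. Both dCKO libraries were more than 2 times the highest control. The log2 fold change was 1.57 with a standard error of 0.34 (edgeR adjusted p = 0.00557), that is 2.97-fold higher, and with the GC trend removed it was 1.45 (adjusted p = 0.0141). Without dCKO replicate 1 the adjusted p was 0.0549 and without dCKO replicate 2 it was 0.0789. These levels rest on 20, 23 and 11 counts in the controls and 78 and 100 in dCKO. Col6a1 was at 10.3, 10.3 and 12.7 CPM in the controls and 11 and 13.1 CPM in dCKO. Its log2 fold change was 0.13 (SE 0.22, edgeR adjusted p = 0.789). Col6a2 was at 9.33, 8.39 and 14.1 CPM and 13.1 and 10.9 CPM, a log2 change of 0.18 (SE 0.25, edgeR adjusted p = 0.715). The groups overlapped for both. Per length, Col6a1 stood at 9.61, 8.15 and 18.6 times Col6a3 in the controls and at 3.76 and 4.22 times in dCKO, while Col6a1 and Col6a2 stayed at 1.02 to 1.39 times and 0.951 to 1.37 times each other. Col6a3 was thus the scarcest of the chains in every library, and the gap was smaller in dCKO.

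Among the fibrillar collagens, 1 of 10 tested members was called higher, beside 5.0% of all genes tested, with 3 at an unadjusted p under 0.05. By limma-voom 1 was called and by DESeq2 0. Col5a1 encodes the α1 chain of type V, which co-assembles with type I and starts its fibrils. The GC correction used the GC content of transcripts, 58.0% for this gene, and not that of upstream windows. The upstream bases of Col5a1, with a GC content of 76.4%, are printed as an example of a GC-rich window. They are from GRCm38.p6, plus strand, chr2:27886175-27886424, of 250 bases, 5′ to 3′, with GGGCGG or CCGCCC in capitals.
Col5a1: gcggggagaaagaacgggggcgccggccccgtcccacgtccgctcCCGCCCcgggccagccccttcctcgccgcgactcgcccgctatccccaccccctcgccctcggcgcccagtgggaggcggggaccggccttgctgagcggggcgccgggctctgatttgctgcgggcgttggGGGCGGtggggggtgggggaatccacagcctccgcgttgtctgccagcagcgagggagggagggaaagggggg

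Col5a1 was at 52.4, 64.3 and 66.2 CPM in the controls and 80.0 and 87.5 CPM in dCKO. Both dCKO libraries lay above all controls. The log2 fold change was 0.46 with a standard error of 0.13 (edgeR adjusted p = 0.0414), 1.38-fold higher. It was 0.26 (adjusted p = 0.215) with the GC trend removed, and the adjusted p was 0.212 and 0.0727 without control replicates 1 and 2 and 0.118 and 0.269 without dCKO replicates 1 and 2. Exons of the antisense transcripts 2810430I11Rik and Gm13372 overlap this gene. Its usual partner in type V trimers, Col5a2, was at 90.5, 128.2 and 99.2 CPM in the controls and 106.1 and 110.4 CPM in dCKO, with a log2 change of 0.03 (edgeR adjusted p = 0.924). Per length, Col5a2 was 2.19, 2.53 and 1.90 times Col5a1 in the controls and 1.68 and 1.60 times in dCKO.

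The abundant fibril formers did not pass the test. Col2a1, the cartilage type II chain, was at 384.8, 410.2 and 625.4 CPM in the controls and 599.1 and 545.9 CPM in dCKO, a log2 change of 0.27 (SE 0.16, edgeR adjusted p = 0.322). Control replicate 3 was the highest of the 5 libraries and the other controls the lowest, and without it Col2a1 was called higher at 0.52 (adjusted p = 0.00518). Col3a1, the type III chain of soft connective tissue and vessel walls, was at 265.9, 419.7 and 394 CPM in the controls and 306.8 and 262.4 CPM in dCKO, a log2 change of -0.34 (SE 0.16, edgeR adjusted p = 0.211). Without control replicate 1, which was the low control, it was called lower at -0.51 (adjusted p = 0.0458). The type I chains Col1a2 and Col1a1, the main collagen of bone and skin, had log2 fold changes of 0.11 (edgeR adjusted p = 0.659) and 0.30 (0.431) with overlapping groups. Col11a1 and Col11a2 belong to type XI, which nucleates type II fibrils. Col11a1 was at 54.8 to 77.0 CPM in the controls and 53.7 and 55.5 CPM in dCKO, a log2 change of -0.27 (edgeR adjusted p = 0.288). Col11a2 was at 1.58, 0.947 and 1.38 CPM against 2.96 and 2.53 CPM, without overlap, but its log2 fold change of 1.07 had a standard error of 0.46 (edgeR adjusted p = 0.187). The minor fibrillar chains Col24a1 and Col27a1 had log2 fold changes of 0.19 and -0.19. Col5a3, too low to test, had 8, 6 and 3 counts in the controls and 18 and 16 in dCKO.

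All 7 basement membrane members had fitted log2 fold changes above 0, from 0.04 to 1.08 with a median of 0.18. Of these 7, 1 was called higher, beside 5.0% of all genes tested. The upper end is Col7a1, which reached the count filter through the dCKO libraries alone; the next highest was 0.75. With the GC trend removed, 3 of the 7 lay below 0: Col15a1 at -0.10, Col4a1 at -0.0026 and Col4a2 at -0.14. Col18a1, which carries heparan sulfate and from which endostatin is released, was at 420, 473.4 and 553.5 CPM in the controls and 711.8 and 598.9 CPM in dCKO. Its groups did not overlap, the log2 fold change was 0.44 with a standard error of 0.12 (edgeR adjusted p = 0.0364) and the level was 1.36-fold higher. With the GC trend removed the log2 fold change was 0.19 (adjusted p = 0.292), and the adjusted p was 0.213, 0.102 and 0.355 without control replicate 1, control replicate 2 and dCKO replicate 1. Markers of the cells that lie on basement membranes had higher summed levels in dCKO. The epithelial list summed to 457 to 579 CPM in the controls and 664 and 698 CPM in dCKO, with all 14 log2 fold changes above 0. Of the 14 genes, 3 were called higher (Krt8, Krt18 and Krt19), beside 5.0% of all genes tested. The endothelial list summed to 423 to 461 CPM against 464 and 529 CPM, so its lower dCKO sum was close to the highest control. By edgeR 2 of 14 genes were called higher (Cldn5 and Egfl7), beside 5.0% of all genes tested, and 0 by DESeq2. Of the 14 log2 fold changes, 11 lay above 0 and 3 below (Pecam1, Tek and Emcn), with a median of 0.17. In 6 of the 14 genes both dCKO libraries lay above every control, beside 19.0% of all genes tested. Their part in the level of Col18a1 was not tested.

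Col4a1 and Col4a2, the chains of the ubiquitous type IV network, run in opposite directions from starts 21 bases apart on chromosome 8 (RefSeq, GRCm38.p6). The start of Col4a2 lies inside Col4a1, so exons of these genes overlap there, and the labels do not say whether the counting used strand. Col4a1 was at 302.2, 338 and 426.8 CPM in the controls and 386 and 420.2 CPM in dCKO, a log2 change of 0.18 (SE 0.13, edgeR adjusted p = 0.451). Col4a2 was at 233.3, 233.5 and 310.6 CPM and 264 and 291.7 CPM, a log2 change of 0.10 (SE 0.13, edgeR adjusted p = 0.711). The per-length ratio of Col4a1 to Col4a2 was 1.26, 1.41 and 1.34 in the controls and 1.43 and 1.41 in dCKO, the narrowest range of any pair examined. Col4a5 and Col4a6, which lie head to head on the X chromosome with starts 1343 bases apart and whose chains join in the basement membranes of skin and smooth muscle, were less alike. Col4a5 was at 19.1, 21.2 and 18.3 CPM against 21.0 and 19.4 CPM, with a log2 change of 0.04 (edgeR adjusted p = 0.914). Col4a6 was at 3.15, 6.49 and 4.89 CPM against 8.23 and 8.04 CPM, without overlap and with a log2 change of 0.75 (SE 0.31, edgeR adjusted p = 0.163). Col4a3 and Col4a4, the chains of the mature kidney glomerulus, had 8 counts each over all libraries. Col15a1, of vessel and muscle basement membranes, had a log2 fold change of 0.05. Col7a1, the chain of epidermal anchoring fibrils, had 7, 3 and 7 counts in the controls and 20 in each dCKO library. Its log2 fold change of 1.08 had a standard error of 0.57 (edgeR adjusted p = 0.289).

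None of the 4 tested transmembrane or other collagens passed the edgeR test, with 2 at an unadjusted p under 0.05. DESeq2 called 0 and limma-voom called 2, both higher. These were Col26a1 and Col13a1. Col26a1 encodes a secreted collagen with an EMI domain and was the most abundant of this class, at 144.9, 180.3 and 218.3 CPM in the controls and 259.9 and 234.5 CPM in dCKO. Its groups did not overlap, and the log2 fold change was 0.45 (SE 0.14, edgeR adjusted p = 0.0721). Col13a1, a transmembrane collagen of cell adhesions and of the neuromuscular junction, was at 10.8, 12.6 and 16.5 CPM against 21.1 and 21.3 CPM, a log2 change of 0.68 (SE 0.20, edgeR adjusted p = 0.0536). Control replicate 3 was the control nearest to dCKO in both, and without it both were called, at 0.60 (adjusted p = 0.00723) and 0.85 (adjusted p = 0.0128). The transmembrane Col23a1 was at 119, 109.2 and 154.3 CPM against 162 and 138.1 CPM, a log2 change of 0.24 (edgeR adjusted p = 0.360), and it too was called higher without control replicate 3, at 0.39 (adjusted p = 0.0489). Col25a1 had a log2 fold change of -0.15 with overlapping groups. Col17a1, the hemidesmosome collagen of epithelia, was too low to test, with 9, 11 and 5 counts in the controls and 6 and 7 in dCKO. On the CPM scale it was at 1.18, 1.49 and 0.764 against 0.555 and 0.536, a lower level in both dCKO libraries, in which the summed epithelial markers were higher.

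Collagen chains need hydroxylases, chaperones and export factors before they leave the cell. Of 19 tested genes of collagen modification and folding, none passed the edgeR test and none had an unadjusted p under 0.05, and DESeq2 and limma-voom also called 0. Their median log2 fold change was 0.03. Serpinh1, the collagen chaperone HSP47, was at 775.3, 790.2 and 933.3 CPM in the controls and 845.7 and 914.7 CPM in dCKO. P4hb, the shared subunit of prolyl 4-hydroxylase, was at 690, 713.4 and 654.3 CPM against 662.5 and 595.1 CPM. Both overlapped between the groups.

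In the list of procollagen export, cleavage and cross-linking, 1 of 13 tested genes fell, beside 1.42% of all genes tested, with a median of -0.07. An unadjusted p under 0.05 was reached by 3 of the 13, beside 2738 of the 12710 genes tested. Among these 3 was Lox, at 2.23, 2.03 and 1.99 CPM in the controls and 1.11 and 0.536 CPM in dCKO. Lox reached the count filter only through the controls. Pcolce, a glycoprotein that speeds the removal of the carboxy-terminal propeptide, was at 93.8, 100.4 and 124.2 CPM in the controls and 81.7 and 70.6 CPM in dCKO. The log2 fold change was -0.48 (SE 0.14, edgeR adjusted p = 0.0415), and this call was lost without control replicate 2 or 3 and without either dCKO replicate. Sparc, a collagen-binding protein of the matrix, was at 131.9, 155.7 and 99.2 CPM against 128.7 and 133.2 CPM. Of 4 tested small proteoglycans none was called by edgeR, DESeq2 or limma-voom, with 2 at an unadjusted p under 0.05. Of 5 tested collagen-cleaving proteases none was called by any of these tools, with 1 at an unadjusted p under 0.05 and a median of 0.24. The gelatinase Mmp2 was at 185.7 CPM on average in the controls and 219.5 CPM in dCKO, and Bgn, the proteoglycan biglycan, at 61.1 and 53.2 CPM.

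The collagen receptors held a pair of opposite changes. Ddr2, the receptor tyrosine kinase for fibrillar collagen that mesenchymal cells carry, was at 93.3, 96.7 and 94.3 CPM in the controls and at 44.6 and 60.7 CPM in dCKO. The controls lay within 4 CPM of each other and far above both dCKO libraries. The log2 fold change was -0.85 (SE 0.14, edgeR adjusted p = 3.64e-04), and it was called in all 15 alternatives. Ddr1, its relative found mainly in epithelia, was at 28.5, 35.3 and 43.9 CPM in the controls and 56.5 and 54.4 CPM in dCKO. Its log2 fold change was 0.63 (SE 0.16, edgeR adjusted p = 0.0213), and the call was lost with the GC trend removed and without control replicate 1 or either dCKO replicate. The epithelial markers given above were also higher in dCKO, and their part in the level of Ddr1 was not tested. The neural crest mesenchyme list summed to 2251 to 2413 CPM in the controls and 2048 and 2150 CPM in dCKO. Of its 12 genes, 3 were called lower and 1 higher, beside 1.42% and 5.0% of all genes tested. The part of this list in the level of Ddr2 was not tested. The other 6 receptors tested were not called. Itgb1, the β1 integrin subunit, was at 208.7 CPM on average against 192.1 CPM, and the endocytic receptor Mrc2 at 177.7 against 167.5 CPM. Itga11 was at 0.394, 0.676 and 0.611 CPM in the controls and 1.57 and 1.91 CPM in dCKO. Its log2 change was 1.63 (SE 0.59, edgeR adjusted p = 0.113). Itga11 reached the count filter only through the dCKO libraries, where it was higher. The receptor list as a whole had 1 of 8 genes higher and 1 lower, beside 5.0% and 1.42% of all genes tested. An unadjusted p under 0.05 was reached by 3 of the 8.

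**Figure D5:**
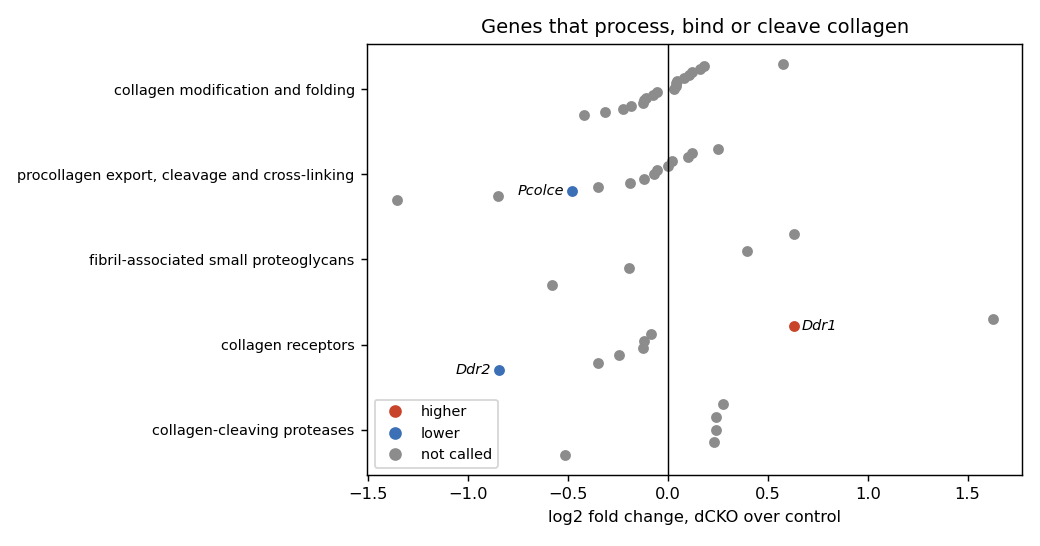
Log2 fold change of dCKO over control for the tested genes of 5 lists that process, bind or cleave collagen, 1 point a gene; red and blue mark genes higher and lower at an edgeR adjusted p below 0.05. Pcolce at -0.48, Ddr2 at -0.85 and Ddr1 at 0.63 are the 3 called genes, and the modification and folding list lies close to 0.

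RefSeq gave an upstream window for 29 of the 37 members, 32 windows in all, of which those of Col8a2, Col9a1, Col6a3 and Col5a1 are printed above. The TEAD core GGAATG, read on both strands in the 250 bases before each start, was in 4 of 32 windows (12.5%) beside 12.6% of 32851 windows of all genes. These were windows of Col18a1, Col20a1, Col3a1 and Col6a2. Annotated exons covered 241 of the 250 bases of that Col18a1 window, 250 for Col20a1, 226 for Col6a2 and 0 for Col3a1. Col18a1 and Col6a2 each had another window, without this match. The TATA box letters TATAAA were in 12.5% of collagen windows beside 12.4% of all. GGGCGG was in 59.4% beside 32.7%, and the collagen windows had a median GC content of 59.4% beside 52.4% over all windows. A match is a run of letters only, and these short windows hold no distal elements.

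In the authors' deposited table, made with their own test, 3 of the 37 members had an adjusted p below 0.05, beside 536 of all 18610 genes there. These were Col8a2 with a log2 fold change of -2.02, Col6a3 with 1.55 and Col9a3 with 1.07. For Col9a1 the authors' deposited table gives a log2 fold change of -0.91 with an adjusted p of 0.203, close in size to the value above but not called. For Col5a1 and Col18a1 the authors' deposited table gives adjusted p-values of 0.0565 and 0.151.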

How the data were processed

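Poly(A) RNA of mandibular tissue was sequenced in 3 control and 2 dCKO libraries on an Ion Total RNA-Seq protocol, per the labels' protocols. The authors deposited raw read counts per gene symbol. The submitters' processing notes name mm9, DESeq 1.16.0 and HTSeq 0.5.4p3; the aligner, annotation and strand setting are not stated in the labels. The authors' deposited table of their comparison holds a signal (mean normalized counts), a fold change as a ratio, its log2 value and p-values, per the file headers. Count columns headed wild type were matched to the control titles by replicate number. Within each group the libraries differed beyond counting error, with a chi-square of 4.34 to 14.6 per gene, and all 5 were kept.

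Counts were tested with edgeR 4.0.16 in R 4.3.3 on all genes: filterByExpr (minimum count 10, minimum total 15) left 12710 genes, scaled by TMM and compared by the quasi-likelihood F test with Benjamini-Hochberg adjustment over all of them, at a threshold of 0.05. A standard error is the size of the log2 fold change divided by the root of its F statistic. Lengths, GC content and gene overlaps are those of GENCODE annotation on GRCm38, with the longest coding transcript per gene. Promoters are RefSeq's on GRCm38.p6, a build other than that of the counts. Alternatives used RLE scaling, erythroid markers left out, DESeq2 1.42.0, limma-voom 3.58.1, other filters, a replicate block, trends on GC content or length removed, and each library left out. The test was run on simulated counts of 12710 genes.

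The members, classes, marker lists and pathway lists were chosen with earlier results of these data known. Values per library are given for the called members, the 2 most abundant of each class and the partner chains of types IV, VI, VIII and IX; for pathway lists, for called genes and up to 2 abundant ones. Other genes with values, such as Col13a1, Col11a2, Col12a1, Col7a1, Col5a2, Col17a1, Tcfl5, Sox9, Sox5, Sox6, Hapln1, Alpl, Itga11 and Spp1, were named after their values were seen.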

Additional observations from a re-analysis of the deposited data

How the results depend on the processing

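Of the 6 called collagens, none changed direction in any of the 15 alternatives; 70 of 89 values stayed past the threshold and 19 lost it. Of 370 values of the 25 members not called, 15 gained a call and 25, in 11 genes, changed direction, none of them called. Leaving out 1 library gave 442 to 1637 changed genes (816 as reported) and 0 to 8 collagens higher (4 as reported): 485, 634 and 1637 genes without control replicate 1, 2 and 3, and 442 and 483 without dCKO replicate 1 and 2. Collagens higher numbered 1, 2, 8, 0 and 1 in the same order, and collagens lower 3 without control replicate 1 and 2 otherwise. The GC trend removed left 1 collagen higher. The groups share replicate numbers. Deviations of same-numbered libraries from their group means had a correlation of 0.08 for number 1 and -0.004 for number 2. With 2 dCKO libraries these deviations are mirror images of each other, so this check can neither show nor exclude pairing. Nothing else here shows that the numbers pair the samples. The replicate block gave 2121 changed genes and 9 collagens higher, and with the GC trend removed as well 927 genes and 1 collagen. Control replicate 3 has no dCKO library of its number, so under the block it did not enter the contrast of the groups. Fitted changes with the block were therefore close to those without that library, as for Col2a1 at 0.525 and 0.518. Without filter 1156 genes changed. Higher calls were 77.9% of all calls as reported, 56.6% with the block, 66% with block and GC trend, 69.2% with DESeq2 and 81.3% with a stricter filter; they were 87%, 84.7% and 58% without control replicate 1, 2 and 3, and 91.2% and 83.6% without dCKO replicate 1 and 2.

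Changes of direction were all in members not called. With the GC trend removed the log2 fold change was -0.10 for Col15a1, -0.025 for Col1a2, -0.0026 for Col4a1, -0.14 for Col4a2 and -0.038 for Col6a1. With replicate block and GC trend it was -0.070 for Col15a1, -0.21 for Col1a1, -0.032 for Col22a1, 0.067 for Col25a1, -0.10 for Col4a2, -0.031 for Col4a5 and -0.00036 for Col6a1. Leaving out 1 library gave -0.082 to 0.19 for Col15a1, -0.044 to 0.59 for Col1a1, -0.42 to 0.089 for Col25a1, -0.0061 to 0.11 for Col4a5, -0.068 to 0.19 for Col5a2, -0.0024 to 0.26 for Col6a1 and -0.20 to 0.28 for Col9a2. Col9a2 was also at 0.028 under limma-voom and at 0.0094 with a stricter filter. The cause was not tested. A lone library in an arm was assumed to vary like the others. Col6a3 did not reach the stricter filter and has no value there.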
